A study of Homo sapiens with 6 samples.

Results

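Germinal centre B cell marker genes were followed in human lymphoma cells in which the histone methyltransferase EZH2 had been knocked down. The set holds 10 genes, MYBL1, LMO2, MEF2B, GCSAM, STAP1, KLHL6, VPREB3, RGS13, MME and SERPINA9. They were taken by symbol from the annotation, on every probe set (the group of short probes that reads 1 transcript) annotated to a single gene. That gave 19 probe sets for 9 of the 10 genes, among 19775 genes with such a probe set in all. MEF2B was annotated only on a probe set that also names BORCS8 and a read-through of both, so no value is given for it. KARPAS-422 and Pfeiffer, both established human lines of diffuse large B-cell lymphoma (DLBCL), were profiled on 6 Affymetrix HG-U133 Plus 2.0 arrays. All cells had received a lentiviral short hairpin RNA and puromycin selection and were profiled at 10 days. The groups were KARPAS-422 with the hairpin against EZH2 (shEZH2, n = 2), KARPAS-422 with the non-targeting hairpin (shNTC, n = 2), Pfeiffer with shEZH2 (n = 1) and Pfeiffer with shNTC (n = 1). Each arm used 1 hairpin sequence. The KARPAS-422 arrays are labelled biological replicates without saying whether they came from separate infections, so p-values measure the spread between these arrays, and Pfeiffer has no replicate check.

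Germinal centres are the sites in lymphoid tissue where activated B cells divide, mutate their antibody genes and are selected. EZH2, the catalytic subunit of Polycomb repressive complex 2, is high in dividing germinal centre B cells, where it methylates histone H3 and holds genes of later stages silent. Genes such as MME, LMO2, MYBL1, SERPINA9 and GCSAM are used to tell lymphomas of germinal centre type from those of activated B cell type, and both lines are counted as germinal centre type in the field and carry mutant EZH2. In these bulk samples, fewer cells of a type and less RNA per cell cannot be told apart.

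The hairpin oligonucleotides are printed because they define the arms, with the target-sense stretch of each in capitals, 5′ to 3′.
shEZH2: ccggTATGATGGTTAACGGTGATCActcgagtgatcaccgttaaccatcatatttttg
shNTC: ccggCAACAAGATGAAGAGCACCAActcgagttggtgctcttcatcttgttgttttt
Promoter windows are shown for the 3 members that changed in KARPAS-422 (SERPINA9, VPREB3 and KLHL6) and for the member whose response differed between the lines (STAP1). Each is the 250 bases before the RefSeq gene start in GRCh38.p14, read 5′ to 3′ on the gene's strand, with motif matches in capitals. They lie at chr14:94476198-94476447 (minus strand) for SERPINA9, chr22:23754426-23754675 (minus strand) for VPREB3, chr3:183555707-183555956 (minus strand) for KLHL6 and chr4:67558477-67558726 (plus strand) for STAP1.
SERPINA9: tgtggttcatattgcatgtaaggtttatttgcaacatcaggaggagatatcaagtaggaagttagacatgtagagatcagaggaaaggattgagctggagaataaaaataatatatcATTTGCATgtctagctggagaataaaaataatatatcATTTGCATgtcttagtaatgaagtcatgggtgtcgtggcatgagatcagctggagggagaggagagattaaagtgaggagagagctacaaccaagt
VPREB3: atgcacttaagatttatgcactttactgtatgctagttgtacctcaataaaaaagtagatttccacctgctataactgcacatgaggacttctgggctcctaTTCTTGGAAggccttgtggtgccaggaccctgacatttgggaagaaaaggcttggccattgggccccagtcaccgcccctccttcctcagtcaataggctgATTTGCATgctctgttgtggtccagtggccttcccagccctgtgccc
KLHL6: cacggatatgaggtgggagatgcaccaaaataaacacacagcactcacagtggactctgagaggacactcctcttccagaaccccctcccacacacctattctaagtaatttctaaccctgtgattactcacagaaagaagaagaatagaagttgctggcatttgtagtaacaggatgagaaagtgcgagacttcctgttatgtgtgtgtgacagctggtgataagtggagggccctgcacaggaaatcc
STAP1: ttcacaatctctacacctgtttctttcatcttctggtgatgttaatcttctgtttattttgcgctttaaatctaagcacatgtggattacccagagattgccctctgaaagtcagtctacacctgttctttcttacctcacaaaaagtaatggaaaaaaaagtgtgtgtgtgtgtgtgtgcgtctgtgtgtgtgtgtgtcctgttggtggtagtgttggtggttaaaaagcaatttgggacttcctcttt
The motifs searched on both strands were the octamer ATGCAAAT bound by OCT factors, the STAT core TTCNNNGAA and the MEF2 site. The SERPINA9 window held 2 copies of the octamer in its reverse form ATTTGCAT, starting 133 and 96 bases before the gene start. Both lie inside an exact repeat of 37 bases that follows itself directly, at a spacing of 37 bases. The VPREB3 window held 1 octamer, again as ATTTGCAT, 47 bases before the start, and a STAT core TTCTTGGAA 148 bases before it. No motif overlapped another, and none of the 3 was found in the KLHL6 or STAP1 windows. Of 27305 promoters in the RefSeq table, 1.66% held the octamer, 6.78% the STAT core and 1.79% the MEF2 site. Of the other members in the table, GCSAM had a STAT core and MEF2B an octamer, and MME and RGS13 had none of the 3. LMO2 and MYBL1 windows were not used here. The windows of SERPINA9, RGS13 and VPREB3 had 1 CpG each, and those of STAP1 and KLHL6 had 2. GCSAM had 5, MME 15 and MEF2B 21, against a median of 11 CpG over all promoters. The MME window, chr3:155079422-155079671 (plus strand), lies inside the gene, which starts at 155024202. Its motif and CpG values are therefore not those of the stretch before the gene start. A motif match describes letters in a window and says nothing of binding in these cells.

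EZH2 itself had signals of 10.52 and 10.55 on the KARPAS-422 shEZH2 arrays, against 11.71 and 11.57 with shNTC, and 10.24 against 11.65 in Pfeiffer. Its level with shEZH2 was thus 46.3% of that with shNTC in KARPAS-422 (adjusted p = 7.73e-04) and 37.6% in Pfeiffer. All signals here are log2 MAS5 values, and the median of all values was 6.21. Of 9 B cell identity markers measured, 9 lay above that median on each KARPAS-422 array and 8 on each Pfeiffer array, the exception being EBF1, a transcription factor of early B cells, at 6.01 and 6.02 in Pfeiffer. Some markers of other cell types were bright in 1 line. Of 4 T and NK cell markers past the filter described below, 2 were higher in KARPAS-422 and 1 lower. CD3D was higher by 5.44 and CD3G by 7.78 log2 units, and CD8A was at -7.77. Of 6 such stromal and epithelial markers 1 was higher and 3 lower. DCN, a matrix proteoglycan of fibroblasts, was higher by 6.55, and the epithelial genes EPCAM (-8.69) and KRT18 (-3.41) were among those lower. CD3D and CD3G were below 6.21 on both Pfeiffer arrays, and EPCAM and KRT18 on all KARPAS-422 arrays. These genes passed the filter through 1 line alone, so it fixed the direction of their line differences. The ACTB control probe sets read 0.138 and 0.175 higher at the 3′ than at the 5′ end on the KARPAS-422 shEZH2 arrays, against 0.0593 and 0.083 with shNTC, and 0.126 against 0.109 in Pfeiffer. The part of these values in the results was not tested.

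Each measured member differed more between the lines than between the hairpins within either line, KLHL6 and GCSAM by little. A gene entered the limma test if at least 2 of 6 arrays lay above 6.21. RGS13 and SERPINA9 did so through their KARPAS-422 arrays alone, so they had to be higher there, and their line differences are given as a description with no test. Of the 7 other measured members, above that level on arrays of both lines, 5 were higher in KARPAS-422 and 2 lower with both hairpins averaged, each at an adjusted p under 0.05. Over all 13036 genes tested, 57.0% passed, 26.8% higher in KARPAS-422 and 30.2% lower, and over the 11523 above that level in both lines 26.9% were higher and 27.2% lower. The arrays of the lines did not overlap for any of the 9 members, RGS13 and SERPINA9 by the filter, against 58.1% of all genes (26.4% higher and 31.7% lower). The test takes the Pfeiffer arrays to vary as the KARPAS-422 replicates do.

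**Figure D1:**
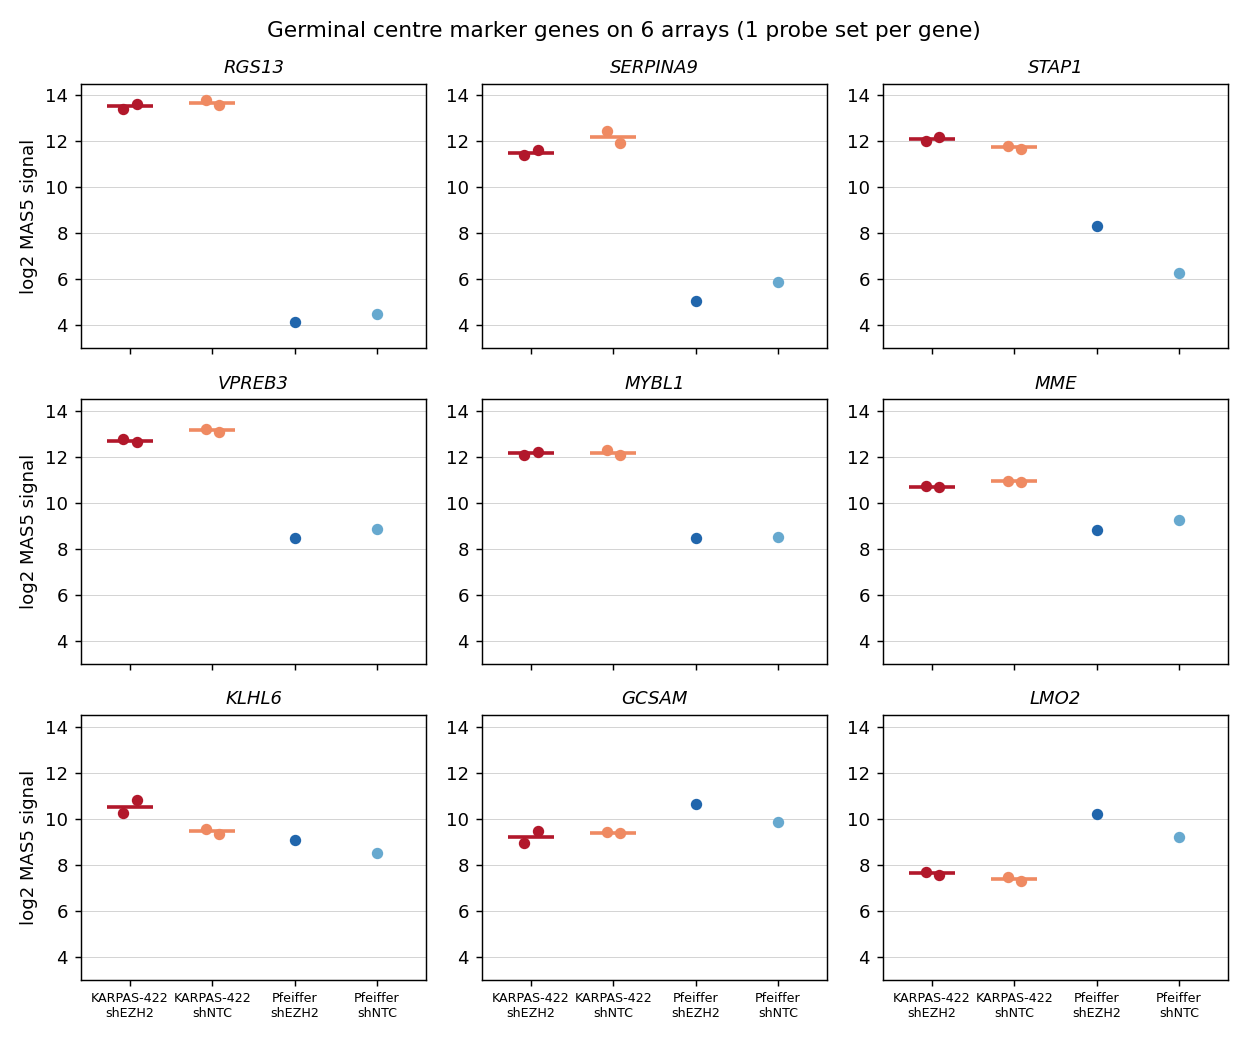
Log2 signal (y axis) of the 9 measured members on each of the 6 arrays, one panel per gene and one point per array, with a bar at the mean of the 2 arrays of each KARPAS-422 group. RGS13 and SERPINA9 lie below 6.21, the median of all values, on both Pfeiffer arrays, and LMO2 and GCSAM are the members with higher signals in Pfeiffer.

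Of the 2 transcription regulators measured, MYBL1 was higher and LMO2 lower in KARPAS-422. MYBL1 encodes A-MYB, a MYB family transcription factor of dividing germinal centre cells. Its signal was 12.09 and 12.22 with shEZH2 and 12.28 and 12.07 with shNTC in KARPAS-422, and 8.49 with shEZH2 and 8.50 with shNTC in Pfeiffer. All 4 KARPAS-422 arrays lay above both Pfeiffer arrays, by a mean of 3.67 log2 units (SE 0.10, adjusted p = 1.53e-07). A dimmer MYBL1 probe set, 231268_at, gave a line difference of 0.66 that did not pass (adjusted p = 0.0816, fit of single probe sets). The remaining MYBL1 probe set and 1 of the 2 for LMO2 were below 6.21 on all 6 arrays. LMO2, a LIM-domain adaptor that joins transcription factors into complexes, was the member with the largest difference toward Pfeiffer. It had signals of 7.66 and 7.57 with shEZH2 and 7.48 and 7.27 with shNTC in KARPAS-422, against 10.21 with shEZH2 and 9.20 with shNTC in Pfeiffer. The line difference was -2.21 (SE 0.15, adjusted p = 1.69e-05), or 4.62-fold higher signal in Pfeiffer.

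STAP1, VPREB3 and KLHL6 were higher in KARPAS-422 and GCSAM lower. STAP1, an adaptor that binds signalling kinases downstream of the B cell receptor, had signals of 12.01 and 12.19 with shEZH2 and 11.80 and 11.65 with shNTC in KARPAS-422. In Pfeiffer it had 8.32 with shEZH2 and 6.28 with shNTC. The line difference was 4.62 (SE 0.10, adjusted p = 7.28e-08). VPREB3, an immunoglobulin-like protein that associates with antibody chains in the endoplasmic reticulum of B-lineage cells, had 12.76 and 12.63 with shEZH2 and 13.21 and 13.10 with shNTC in KARPAS-422. Its Pfeiffer signals were 8.47 with shEZH2 and 8.87 with shNTC, which gives a line difference of 4.25 (SE 0.08, adjusted p = 4.10e-08). For both genes no KARPAS-422 array came near a Pfeiffer array. KLHL6, a substrate adaptor of CUL3 ubiquitin ligases needed for germinal centre formation in mice, differed less. It had 10.26 and 10.79 with shEZH2 and 9.54 and 9.35 with shNTC in KARPAS-422, against 9.07 with shEZH2 and 8.52 with shNTC in Pfeiffer. The line difference of 1.19 (SE 0.16, adjusted p = 6.17e-04) was positive on all 4 KLHL6 probe sets, at 0.58 to 2.08. GCSAM, also called HGAL, is an adaptor that modulates receptor signalling and cell motility, and it ran the other way. Its signals were 8.92 and 9.47 with shEZH2 and 9.42 and 9.36 with shNTC in KARPAS-422, against 10.63 with shEZH2 and 9.83 with shNTC in Pfeiffer. The 2 lines did not overlap, and the difference was -0.94 (SE 0.16, adjusted p = 0.00197).

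RGS13 was bright in KARPAS-422 and dim in Pfeiffer. It is a GTPase-activating protein that shortens chemokine receptor signals. Its brightest probe set read 13.41 and 13.63 with shEZH2 and 13.78 and 13.56 with shNTC in KARPAS-422, against 4.16 with shEZH2 and 4.50 with shNTC in Pfeiffer. The difference was 9.27 on this probe set, and 5.71 and 12.38 on its other probe sets. Both Pfeiffer signals are far below 6.21, so the size is uncertain, and with 64 added to each linear value it was 7.21. SERPINA9, or centerin, is a serine protease inhibitor made by germinal centre B cells. It had 11.38 and 11.62 with shEZH2 and 12.44 and 11.93 with shNTC in KARPAS-422, against 5.07 with shEZH2 and 5.90 with shNTC in Pfeiffer. Both Pfeiffer signals are below 6.21, and the line difference of 6.36, or 5.09 with 64 added, is likewise uncertain in size. MME, the cell-surface peptidase CD10, was above the median of all values in both lines. Its signals were 10.72 and 10.68 with shEZH2 and 10.97 and 10.90 with shNTC in KARPAS-422, against 8.83 with shEZH2 and 9.26 with shNTC in Pfeiffer. The line difference was 1.77 (SE 0.09, adjusted p = 4.58e-06), and its second probe set gave 1.70.

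In order of the line difference the members ran RGS13, SERPINA9, STAP1, VPREB3, MYBL1, MME, KLHL6, GCSAM and LMO2. The narrowest gaps between neighbours were 0.36 from STAP1 to VPREB3 (combined SE 0.13), 0.58 from VPREB3 to MYBL1 (0.13) and 0.59 from MME to KLHL6 (0.19). The order of RGS13 and SERPINA9 is not settled, since the RGS13 probe sets lie on both sides of the SERPINA9 value. The median line difference of the 7 members above 6.21 on arrays of both lines was 1.77, against -0.03 over the 11523 such genes. It was -0.08 over 19 such genes of the other germinal centre list, of which 7 were higher and 8 lower in KARPAS-422. The B cell identity markers leaned the same way as the members. Of 8 such markers, 5 were higher and 2 lower in KARPAS-422, with a median of 1.27. With RGS13 and SERPINA9 included the members' median was 3.67. In this paragraph, genes outside the member set are named after their values were seen. The other germinal centre genes included the transcription factor MEF2C at 6.57 (above 6.21 on KARPAS-422 arrays alone) and MAML3 at 4.24, and the chemokine receptor CXCR4 at -5.72. Of 18 activated B cell type genes, 5 were above 6.21 on Pfeiffer arrays alone and so had to be lower in KARPAS-422, BATF and CD44 among them. Of the other 13, 1 was higher and 8 were lower in KARPAS-422, with a median of -1.92. The transcription factor BATF was at -8.40, the adhesion receptor CD44 at -7.25 and the transcription factor IRF4 at -4.52, while FOXP1 was at 0.48, with 1 of its 8 probe sets at -0.03. Of 13 plasma cell genes, 1 was higher (SDC1 at 3.92) and 11 lower, including the antibody joining chain JCHAIN at -6.37 and MZB1 at -5.56. The genes named here kept their direction and call under each of the 3 other scalings (quantile, median and cyclic loess), although median centring left 7 plasma cell genes lower in place of 11. Median centring also moved the median line difference of all genes to 0.17 and the split of calls to 4858 higher and 2899 lower, against 3488 and 3942 as deposited.

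**Figure D2:**
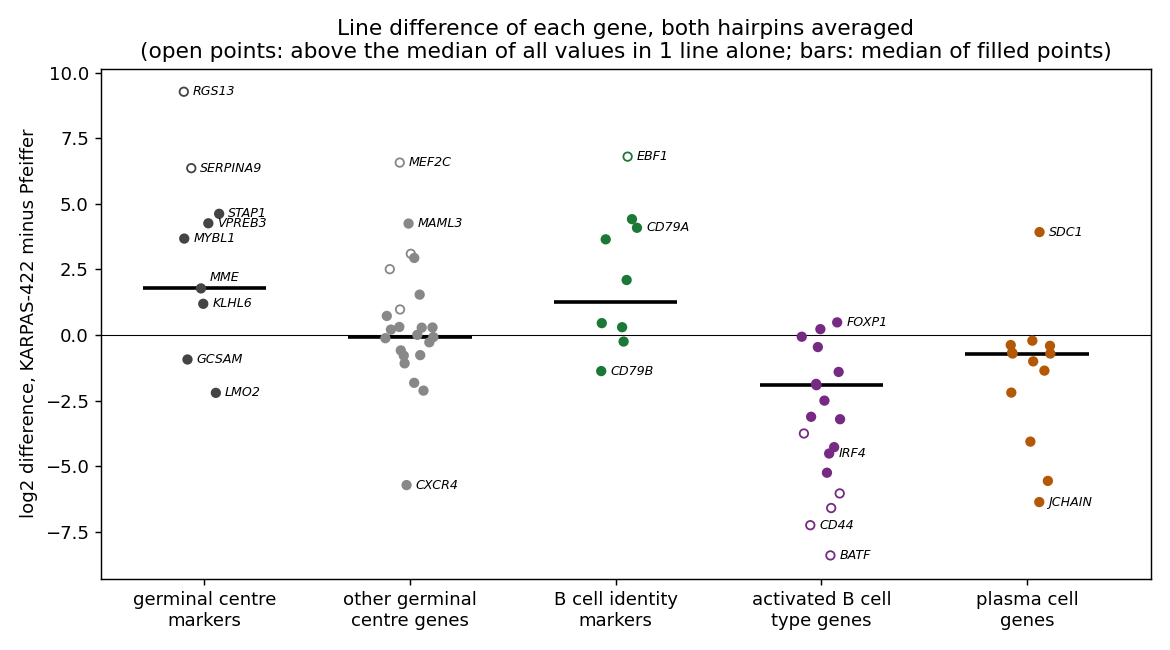
Line difference (KARPAS-422 minus Pfeiffer, log2 units) of the genes past the filter in the member set and the other B cell lists, one point per gene with the median of the filled points as a bar. Open points are genes above 6.21, the median of all values, on arrays of 1 line alone, whose direction the filter fixed. The bar lies at 1.77 for the members and at -1.92 for the activated B cell type genes.

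EZH2 knockdown in KARPAS-422 raised 1 member and lowered 2. KLHL6 rose, SERPINA9 and VPREB3 fell, and the other 6 did not pass the test. Over all genes 25.4% passed, 13.1% higher and 12.3% lower, so 3 of 9 is close to that share. The shEZH2 and shNTC arrays did not overlap for 6 of the 9 members, 3 higher (LMO2, STAP1 and KLHL6) and 3 lower (MME, SERPINA9 and VPREB3), against 65.7% of all genes (31.8% higher and 33.9% lower). The members' median difference was -0.15, against -0.02 for all genes.

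KLHL6 rose by 1.08 log2 units with shEZH2 (SE 0.19, n = 2 per arm, adjusted p = 0.00804), a 2.12-fold higher signal. Both shEZH2 arrays were above both shNTC arrays, although they lay 0.53 apart from each other. All 4 of its probe sets were higher with shEZH2. Their differences were 1.08 on 228167_at (adjusted p = 0.0100), 1.15 on 1560397_s_at (adjusted p = 0.0509), 0.59 on 1560396_at (adjusted p = 0.173) and 0.27 on 1555275_a_at (adjusted p = 0.460), each from the fit of single probe sets. With shEZH2 replicate 2 left out the difference was 0.82 and did not pass (adjusted p = 0.0591), nor did it with a variance prior that has no intensity trend (adjusted p = 0.0730).

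SERPINA9 fell by 0.68 (SE 0.19, adjusted p = 0.0363), so that its signal with shEZH2 was 62.2% of that with shNTC. The lower shNTC array, at 11.93, stood 0.31 above the higher shEZH2 array, and the shNTC replicates were 0.51 apart. With shNTC replicate 1 left out the difference was -0.43 (adjusted p = 0.135), with shEZH2 replicate 1 left out -0.57 (adjusted p = 0.215), and with shEZH2 replicate 2 left out -0.80 (adjusted p = 0.119). It also missed the threshold after quantile normalization (adjusted p = 0.0546), with no filter (adjusted p = 0.0643) and with no trend (adjusted p = 0.135).

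VPREB3 fell by 0.46 (SE 0.10, adjusted p = 0.0156), to 72.9% of the signal with shNTC. Replicates agreed within 0.13 in each arm, and the arms were at least 0.33 apart. It was -0.40 with shNTC replicate 1 left out (adjusted p = 0.0695), -0.52 with shEZH2 replicate 1 left out (adjusted p = 0.0606) and -0.39 with shEZH2 replicate 2 left out (adjusted p = 0.105), so it did not pass in these fits, or with no trend (adjusted p = 0.0962). SERPINA9 and VPREB3 are each read by a single probe set, so no other probes of the array bear on them.

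The remaining members had smaller differences relative to their error. STAP1 was 0.37 higher (SE 0.12, adjusted p = 0.0601) on 220059_at and 0.44 higher on its other probe set (adjusted p = 0.0542, fit of single probe sets). It passed with quantile normalization (0.47, adjusted p = 0.0382), with the stricter filter (adjusted p = 0.0499) and with the mean of both probe sets (0.41, adjusted p = 0.0422). MME differed by -0.24 (SE 0.11, adjusted p = 0.151) and LMO2 by 0.24 (SE 0.18, adjusted p = 0.357). GCSAM differed by -0.19 (SE 0.19, adjusted p = 0.488), and its shEZH2 arrays, at 8.92 and 9.47, lay on either side of both shNTC arrays. RGS13 differed by -0.15 (SE 0.13, adjusted p = 0.430). MYBL1 differed by -0.02 (SE 0.11, adjusted p = 0.915), and its shEZH2 arrays lay between its shNTC arrays.

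In Pfeiffer, STAP1 stood out. Its signal was 8.32 with shEZH2 against 6.28 with shNTC, which lies just above the median of all values, a difference of 2.04 and a 4.10-fold higher signal, and its second probe set read 7.40 against 5.40. Among all genes tested it was number 65 in order of increase. LMO2 followed at 1.01, or 2.02-fold. These were the 2 members at least 1 log2 unit higher, against 3.23% of all genes, and 0 members were at least 1 unit lower, against 1.48% (4.71% in either direction). Of all genes, at any signal level, 4.36% differed by as much between the KARPAS-422 shEZH2 replicates and 5.99% between the shNTC replicates. For LMO2 those replicates lay 0.09 and 0.21 apart, and its spread in Pfeiffer is not known. GCSAM was 0.79 higher and KLHL6 0.55 higher with shEZH2. The other KLHL6 probe sets were higher by less, at 0.28 on 1560396_at, 0.08 on 1560397_s_at and 0.006 on 1555275_a_at. SERPINA9 was at -0.83, MME at -0.43, VPREB3 at -0.41, RGS13 at -0.34 and MYBL1 at -0.01. SERPINA9 and RGS13 were below the median of all values on both Pfeiffer arrays. Without replicates none of these differences could be tested within Pfeiffer.

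**Figure D3:**
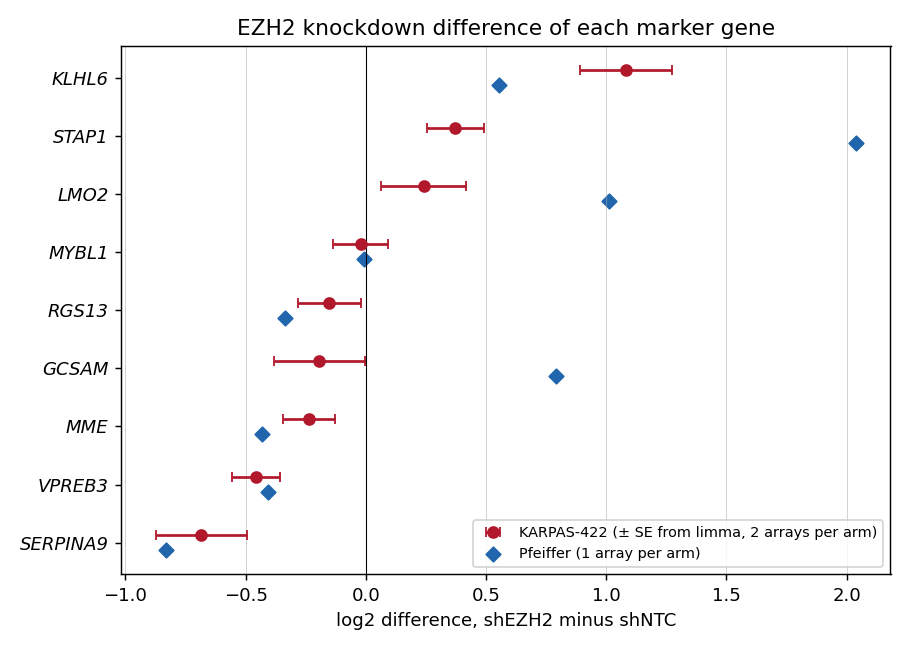
Difference between shEZH2 and shNTC (log2 units) for each member in KARPAS-422 (with its standard error, n = 2 per arm) and in Pfeiffer (1 array per arm, no error). Each gene is shown on its brightest kept probe set. STAP1 lies at 0.37 in KARPAS-422 and 2.04 in Pfeiffer, and KLHL6 at 1.08 in KARPAS-422 and 0.55 in Pfeiffer.

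The test of the difference between the lines passed for STAP1 alone among the members. Its shEZH2 effect was 1.66 log2 units smaller in KARPAS-422 than in Pfeiffer (difference of differences -1.66, SE 0.21, adjusted p = 0.0142). Of all genes 1.70% passed this test, 1.25% with a positive and 0.453% with a negative difference of differences. Its second probe set gave -1.57 (adjusted p = 0.0299, fit of single probe sets). STAP1 did not pass when KARPAS-422 shEZH2 replicate 1 (-1.58, adjusted p = 0.150) or its other shEZH2 replicate (-1.75, adjusted p = 0.119) was left out, with no trend (adjusted p = 0.146), or with 64 added to each linear value (-1.07, adjusted p = 0.0512). GCSAM had effects of -0.19 in KARPAS-422 and 0.79 in Pfeiffer, but the difference did not pass (-0.99, adjusted p = 0.193). LMO2 (-0.77, adjusted p = 0.259) and KLHL6 (0.53, adjusted p = 0.458) did not pass either, and the other members' differences were between -0.05 and 0.20. Among B cell genes of the other lists that were chosen after their values were seen, 3 also passed with a larger effect in Pfeiffer. They were MEF2C, with effects of -0.44 in KARPAS-422 and 0.99 in Pfeiffer (where it read 5.92 with shEZH2 and 4.93 with shNTC, both below 6.21), the B cell receptor subunit CD79A (-0.09 and 0.95) and FCRLA (0.13 and 1.27), an Fc receptor-like protein of germinal centre B cells. MEF2C had 1 of 3 probe sets of the opposite sign, at 0.12, and FCRLA did not pass after any of the 3 other scalings. Each of the 3 failed to pass once either KARPAS-422 shEZH2 array was dropped, with adjusted p up to 0.228. Like STAP1, all 3 had lower signals in Pfeiffer than in KARPAS-422, by 4.08 to 6.57 log2 units. Other genes of these lists passed with a positive difference of differences, namely BACH2 (3.46), CXCR4 (2.40), KLHL14 (1.70), STAT3 (1.14) and CD79B (0.82). Their Pfeiffer effects were negative, at -0.21 for BACH2, -0.05 for CXCR4, -0.24 for KLHL14, -0.33 for STAT3 and -0.43 for CD79B. CD79B, at 0.39 in KARPAS-422, thus had opposite directions and no larger effect there. BACH2 also had lower signals in Pfeiffer than in KARPAS-422, with a line difference of 3.09, and lay below 6.21 on both Pfeiffer arrays.

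**Figure D4:**
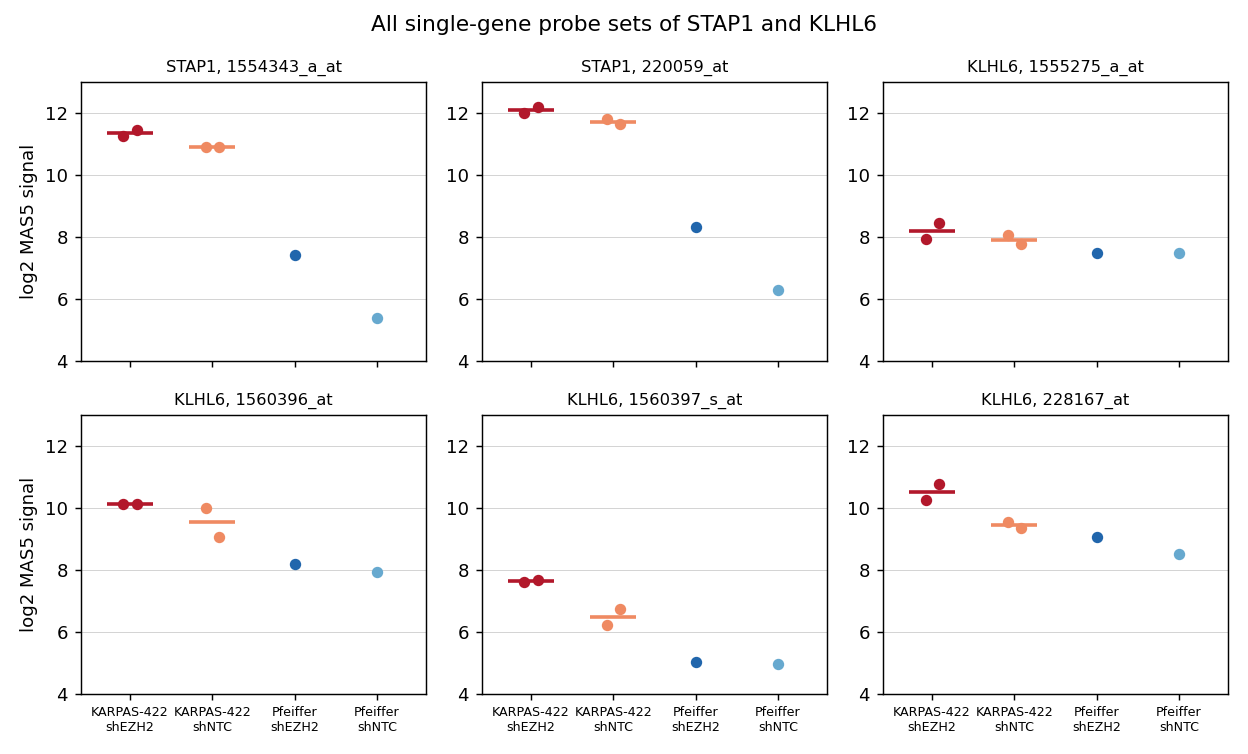
Log2 signal of the probe sets of STAP1 and KLHL6 on the 6 arrays, one panel per probe set and one point per array, with shEZH2 left of shNTC within each cell line and a bar at the mean of the 2 arrays of each KARPAS-422 group. Both STAP1 probe sets are about 2 units higher with shEZH2 in Pfeiffer (8.32 against 6.28 and 7.40 against 5.40).

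Across both lines, with a term for the line, KLHL6 was higher with shEZH2 by 0.91 (SE 0.18, n = 3 per arm, adjusted p = 0.0385). Its other probe sets were higher by 0.18 to 0.79 and did not pass (adjusted p between 0.171 and 0.606, fit of single probe sets). SERPINA9 fell by 0.73 (SE 0.16, adjusted p = 0.0422) and VPREB3 by 0.44 (SE 0.09, adjusted p = 0.0401). Over all genes 6.22% passed, 3.76% higher and 2.46% lower. The comparison shares the KARPAS-422 arrays with the one above and is not separate evidence. None of the 3 passed once any 1 of the 4 KARPAS-422 arrays was dropped, with adjusted p between 0.121 and 0.202, and the values then ran from 0.70 to 1.01 for KLHL6, from -0.89 to -0.60 for SERPINA9 and from -0.47 to -0.40 for VPREB3. STAP1 was at 0.93 (adjusted p = 0.0952), LMO2 at 0.50 (adjusted p = 0.152) and MME at -0.30 (adjusted p = 0.109), while RGS13 (-0.21), GCSAM (0.13) and MYBL1 (-0.02) were smaller.

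Other lists of the same cell lineage moved in both directions in KARPAS-422. Of all genes 25.4% passed, 13.1% higher and 12.3% lower. By list it was 34.8% of other germinal centre, 33.3% of activated B cell type, 38.5% of plasma cell and 11.1% of B cell identity genes. Of 23 other germinal centre genes, 7 rose and 1 fell, with a median of 0.05 against -0.02 for all genes. The largest were CPNE5 at 4.10, the AKT coactivator TCL1A at 3.49, the transcription repressor BACH2 at 3.25 and CXCR4 at 2.36. The shNTC arrays were uneven for CPNE5 (6.65 and 4.86) and TCL1A (7.44 and 5.94). The gene that fell was the uracil glycosylase UNG at -0.57, which repairs deaminated cytosine in antibody genes. Of 18 activated B cell type genes, 4 rose (LIMD1 at 1.36, STAT3 at 0.82, FUT8 at 0.80 and SH3BP5 at 0.67) and 2 fell (the kinase gene PIM1 at -0.84 and RAB29 at -0.62). Of 13 plasma cell genes, 2 rose (JCHAIN at 1.81 and ERN1 at 1.15) and 3 fell (XBP1 at -0.91, SEC11C at -0.45 and PRDX4 at -0.39). The shNTC arrays were uneven for JCHAIN (7.46 and 5.97) and for XBP1 (11.76 and 10.79). Of 9 B cell identity markers, CD79B, a B cell receptor subunit, rose by 0.39 and 0 fell. LIMD1, SH3BP5, RAB29, ERN1 and XBP1 each had 1 probe set of the opposite sign, which for XBP1 read 1.50 higher. These counts fell when a shEZH2 array was left out. Without shEZH2 replicate 1 they were 4 higher and 1 lower for the other germinal centre list, 3 and 0 for the activated B cell type list and 0 and 0 for plasma cells, and without shEZH2 replicate 2 they were 4 and 1, 2 and 0, and 0 and 0.

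Paralogs and partners of the members were looked at because they share domains or complexes with them. Measured here means past the filter, as single-gene probe sets existed for 29 partners, 10 precursor B cell genes and 10 T and NK cell markers. Of 25 measured, 4 rose and 3 fell in KARPAS-422, so 7 of 25 is close to the 25.4% of all genes that passed. MEF2A, a relative of MEF2B, rose by 1.13, and HDAC4, a corepressor of MEF2 factors, by 1.44. RGS2, which like RGS13 limits G protein signals, rose by 0.72, and ECE1, a peptidase of the MME family, by 0.85. MYBL2, the cell cycle relative of MYBL1, fell by 0.71, TCF3, a transcription factor found in LMO2 complexes, by 0.39, and CUL3, the ubiquitin ligase scaffold that KLHL6 binds, by 0.38. TCF3 and CUL3 each had 1 probe set of the opposite sign, of 11 and 2. Without shEZH2 replicate 1 the partner list had 1 higher and 1 lower, and without replicate 2 it had 1 and 0. Of 2 precursor B cell genes measured, CD9 fell by 1.36 on its brightest probe set and read 1.21 higher on another, and it did not pass once any 1 KARPAS-422 array was dropped (highest adjusted p = 0.134). The T cell genes CD3D and CD3G fell by 0.77 and 0.64, so 2 of the 4 T and NK cell markers measured were lower, and 0 passed when either shEZH2 array was left out. The summed linear signal of all 10 listed T and NK cell markers was 4022 to 4427 on the KARPAS-422 shEZH2 arrays, against 6452 to 7038 with shNTC. In Pfeiffer it was 12732 with shEZH2 against 11804 with shNTC. There CD8A read 13.60 with shEZH2 and 13.49 with shNTC in log2 units, while CD3D and CD3G were below 6.21. The member set summed to 32648 and 35903 with shEZH2 against 41274 and 35691 with shNTC in KARPAS-422, so these sums overlapped. In limma 0 of 2 myeloid and 0 of 6 stromal and epithelial genes passed in KARPAS-422, and 0 and 1 of them had an unadjusted p under 0.05.

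For each member called in KARPAS-422, the 3 genes with the closest profile over the 6 arrays were found by the root mean square distance between profiles centred on their own mean. SERPINA9 lay closest to FAIM2 (0.268 log2 units), FERMT3 (0.304) and BEX5 (0.307). KLHL6 lay closest to C1orf220 (0.145), ZNF441 (0.169) and TIPARP (0.173), which rose with shEZH2 in KARPAS-422 by 1.13, 1.03 and 0.88. VPREB3 lay closest to the phosphatase gene PTPN6 (0.122), MICALCL (0.144) and CRIP1 (0.150). The 6 neighbours of SERPINA9 and VPREB3 differed by -0.57 to -0.17 with shEZH2 in KARPAS-422, with adjusted p between 0.0597 and 0.494, and by -1.49 to -0.07 in Pfeiffer. The distance uses all 6 arrays, so these values describe the choice of neighbours and are no separate evidence.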

How the data were processed

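Gene expression of 6 arrays was analysed from the deposited table of log2 signals. Per the submitters' processing notes the authors used MAS5, with no version given, a method that works array by array and sets a scale for each. The log base is not given in the sources used here. As powers of 2 the values had a 2% trimmed mean of 500.0 on all 6 arrays, so the deposited values were read as log2 signals of arrays scaled alike. Scan dates and detection calls were not used here, and no batch was tested. The lines and arms were taken from the sample titles. Of 54675 probe sets, 41091 had 1 gene symbol, 1801 several, 11721 none and 62 were controls. Gene IDs of 41037 matched RefSeq, and 0 symbols changed.

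Probe sets above the median of all values (6.21) on 2 or more of the 6 arrays were kept. Each gene was represented by its brightest kept probe set, which gave 13036 genes, and 17 of the members' 19 probe sets were kept. limma 3.58.1 in R 4.3.3 (lmFit, eBayes with an intensity trend) was run two-sided, adjusting by Benjamini-Hochberg over the 13036 genes, with a threshold of 0.05. A model of 4 groups (2 residual and 5.24 prior degrees of freedom) gave KARPAS-422, the line comparison and the difference between lines, and a model with line and hairpin gave both lines. Pfeiffer alone was not tested, and a difference of 1 log2 unit was counted instead. The alternatives were 3 other scalings, other filters, no trend, the mean of probe sets, all probe sets, no _x_at or _s_at probe sets, 16 or 64 added to linear values, each KARPAS-422 array left out, a replicate block and an additive line term. Other genes were named by a rule for the knockdown in KARPAS-422 (up to 4 called genes per direction in each list, by size) and as the 3 nearest profiles of each called member. Genes named for a line difference, for a difference between lines or as markers of other cell types were chosen after their values were seen. The members and lists were chosen with earlier results of these data known. The scripts were tested on simulated data. Sequences are RefSeq's (GRCh38.p14, 8 of 10 members matched) or the labels' own hairpins. Precision is limited by the number of arrays.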

Additional observations from a re-analysis of the deposited data

Results flagged for a closer look

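The effect of shEZH2 differed between the lines, past the limma test of the difference, for 1 member and 8 genes of the other B cell lists (values are the KARPAS-422 effect minus the Pfeiffer effect, in log2 units). STAP1 had -1.66, from 0.37 in KARPAS-422 and 2.04 in Pfeiffer (adjusted p = 0.0142). A smaller effect in KARPAS-422 was also found for MEF2C (-1.43, adjusted p = 0.0357), FCRLA (-1.15, adjusted p = 0.0475) and CD79A (-1.05, adjusted p = 0.0271). MEF2C and BACH2 were below 6.21, the median of all values, on both Pfeiffer arrays (5.92 with shEZH2 and 4.93 with shNTC for MEF2C, 5.50 and 5.71 for BACH2), so their Pfeiffer effects are differences of dim signals. A positive value was found for BACH2 (3.46, adjusted p = 0.00518), CXCR4 (2.40, adjusted p = 0.00521), KLHL14 (1.70, adjusted p = 0.0151), STAT3 (1.14, adjusted p = 0.0174) and CD79B (0.82, adjusted p = 0.0470). All of these had a negative effect in Pfeiffer, and CD79B was at 0.39 in KARPAS-422 and -0.43 in Pfeiffer. Each of these calls rests on 1 Pfeiffer array per arm, and each was lost when either KARPAS-422 shEZH2 array was left out, where 0 genes passed, with highest adjusted p between 0.116 and 0.228.

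For 3 further genes the shEZH2 differences of the lines had opposite signs while the test of the difference did not pass. HDAC4 was at 1.44 in KARPAS-422 and -0.08 in Pfeiffer (1.52, adjusted p = 0.186). LIMD1 was at 1.36 and -0.03 (1.39, adjusted p = 0.151), and RAB29 at -0.62 and 0.46 (-1.08, adjusted p = 0.151). For HDAC4 and LIMD1 the Pfeiffer values are close to no difference, from 1 array per arm. LIMD1 and RAB29 each had 1 probe set of the opposite sign in KARPAS-422.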

How the results depend on the processing

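The 9 line differences kept direction and call in all 150 combinations of member and setting, though the filter fixed those of RGS13 and SERPINA9 in all but the unfiltered fit (without _x_at and _s_at probe sets, MME, LMO2 and SERPINA9 had no probe set left, so 1 member was lower in place of 2). The knockdown calls of members moved more, and the cause was not tested. In KARPAS-422, with 1 higher and 2 lower as reported, quantile normalization gave 2 and 1, and the stricter filter and the mean of probe sets each gave 2 higher. No filter and no _x_at or _s_at probe sets each left 1 lower, and eBayes without a trend left 0 and 0 (2 and 2 at an unadjusted p under 0.05). Leaving out 1 array gave 0 to 1 higher and 0 to 2 lower.

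Over both lines, 0 higher and 0 lower passed without a filter, without a trend, and without any 1 KARPAS-422 array (1 to 3 per direction at an unadjusted p under 0.05). Quantile normalization left 0 lower (3 unadjusted), the mean of probe sets 0 higher (3 unadjusted), and no _x_at or _s_at probe sets or 64 added 1 lower each. In the difference between lines, 0 passed without a trend (2 unadjusted lower), with 64 added (3) or without KARPAS-422 shEZH2 replicate 1 or 2 (2 each), a range of 0 to 1 when arrays were left out. In Pfeiffer, 1 member was at least 1 unit higher after median centring, cyclic loess, no _x_at or _s_at probe sets, 16 added or 64 added, and 1 was lower after quantile normalization. STAP1 there was 1.43 with 64 added.

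The signs that turned belonged to members that did not pass. In KARPAS-422, MYBL1 was 0.093 and RGS13 0.052 after quantile normalization, and MYBL1 0.0098 after cyclic loess. With 1 array left out MYBL1 ran from -0.124 to 0.082 and GCSAM from -0.468 to 0.081. Over both lines MYBL1 was 0.040 after quantile normalization, 0.012 after cyclic loess and -0.073 to 0.044 with 1 array left out, and RGS13 was 0.024 with the mean of probe sets. In the difference between lines, MYBL1 was 0.160 and VPREB3 0.177 after quantile normalization, and 0.045 and 0.0090 after median centring. RGS13 was -0.403 with the mean of probe sets and -0.070 with 64 added, and SERPINA9 was -0.070 with 16 added and -0.330 with 64 added. With 1 array left out, MYBL1 ran from -0.118 to 0.088, SERPINA9 from -0.108 to 0.401 and VPREB3 from -0.118 to 0.016.

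Deviations of the same-numbered KARPAS-422 arrays had r = 0.0065 across genes. With 2 pairs this value cannot settle whether arrays of the same number were prepared together, and the labels do not say. With the replicate number as a block, the member calls in KARPAS-422 were 1 higher and 2 lower as before, and over both lines 0 and 0 (2 and 3 unadjusted), with KLHL6 at adjusted p = 0.0887, SERPINA9 at 0.0926 and VPREB3 at 0.0862.

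Calls over all genes moved as well. In KARPAS-422 they were 1702 higher and 1603 lower as reported, 586 and 134 without a trend, 539 and 537 without shEZH2 replicate 1 and 545 and 418 without shEZH2 replicate 2. Over both lines they were 490 and 321, against 462 and 1029 after median centring, 203 and 99 without a filter, 9 and 2 with the block, 15 and 2 without shNTC replicate 1, and 0 and 0 without a trend (1855 and 1337 unadjusted) or without any other KARPAS-422 array (fewest 1250 and 983 unadjusted). For the difference between lines they were 163 and 59, against 1 and 0 without a trend, 94 and 20 without a filter, 242 and 106 with the stricter filter, 222 and 156 with the block, 301 and 88 without shNTC replicate 1, 345 and 128 without shNTC replicate 2, and 0 and 0 without either shEZH2 array (fewest 834 and 930 unadjusted). Counts in Pfeiffer of 421 and 193 became 1800 and 1241 with no filter, 281 and 112 with 16 added, 108 and 27 with 64 added and 328 and 240 after median centring. With every probe set as its own row, which nearly doubles what is tested, they were 888 and 390 in Pfeiffer, 3122 and 2293 in KARPAS-422, 781 and 441 over both lines and 6693 and 7128 between the lines. Without _x_at and _s_at probe sets they were 1364 and 901 in KARPAS-422 and 350 and 151 over both lines, and the mean of probe sets gave 30 lower in the difference between lines. Dim signals have the widest spread on this scale, which limits RGS13 and SERPINA9 in Pfeiffer most.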
